A study of Mus musculus with 4 samples.

Results

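The Hoxb cluster is the block of 10 homeobox genes, Hoxb1 to Hoxb9 and Hoxb13, that lies on mouse chromosome 11. It was followed here through H3K27me3, the trimethylated lysine of histone H3 that Polycomb repressive complex PRC2 deposits, in erythro-myeloid progenitors (EMPs). The genes were taken by name, and the peaks were all those that touched the stretch from the first base of Hoxb13 to the last base of Hoxb1 plus 10 kb on each side. All 10 genes were found among 21911 protein-coding genes. The stretch held 60 of the 10223 peaks of the library made from 500 EMPs and 54 of the 15282 peaks of the library made from 15000 EMPs. A Hoxb gene was named in 63 of 10516 rows of the authors' annotated table for 500 EMPs and in 48 of 15810 rows for 15000 EMPs.

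There were 4 CUT&RUN libraries in the series, 1 with H3K27me3 and 1 with IgG for each cell number, so that every group had 1 library. CUT&RUN releases DNA around an antibody target with a tethered nuclease. All libraries came from EMPs of the C57BL/6 yolk sac at E10.5 (embryonic day), without treatment. All 4 samples carry the same genotype label, Ezh2fl/fl; Tie2-Cre+/+ followed by the words wild type, and the study describes the cells as WT. Ezh2 is the methyltransferase of PRC2, and Tie2-Cre is driven in endothelium and in the blood cells that descend from it. In the study the EMP gate was KIT+, CD41+ and CD16/32+ cells that lacked lineage markers and SCA1, and the number of embryos pooled is not given in the sources used here. IgG libraries were not used here beyond their part in the authors' peak calling. Cell number cannot be told apart from 17 against 16 PCR cycles, from reads of 76 against 59 bp, from the instrument, from the lower sequencing depth and alignment rate that the study's reporting summary gives for 500 EMPs, or from the p threshold of peak calling (0.01 for 500 EMPs and 0.05 for 15000 EMPs).

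The files give the position of each peak and neither its height nor a read count, so depth was not corrected for. A base was therefore scored as covered or not covered by a peak, and an uncovered base is one at which no peak was called. With 1 library per cell number no value below has a replicate error, and no test between genes, stretches or libraries was possible. The order of genes is given within each library, and a difference between neighbours in that order cannot be set against a spread.

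Hox genes encode transcription factors that give cells along the body axis their position, and each cluster is laid out so that genes at its 3′ end act early and anteriorly while genes at its 5′ end act late and posteriorly. Polycomb complexes keep inactive Hox genes under broad H3K27me3 domains, and the mark is lost stepwise from the 3′ end as genes are switched on. Several Hoxb genes are known from blood: Hoxb4 expands hematopoietic stem cells, Hoxb5 marks long-term repopulating stem cells, and enforced Hoxb8 holds myeloid progenitors in a cycling state. All 10 genes are transcribed from the plus strand, so that in rising coordinates (mm10, which is GRCm38) the order is Hoxb13, Hoxb9, Hoxb8, Hoxb7, Hoxb6, Hoxb5, Hoxb4, Hoxb3, Hoxb2 and Hoxb1.

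The promoters of 3 of the 10 genes were matched in the RefSeq table of GRCm38.p6, and these are the ones shown. Each runs from 250 bases before the start to 50 bases from the start on, plus strand, 5′ to 3′, and capitals mark the CpG dinucleotides (CG), which are known to draw Polycomb complexes when they are dense and unmethylated. The motif searched was CG, which reads the same on both strands and cannot overlap itself.
Hoxb8: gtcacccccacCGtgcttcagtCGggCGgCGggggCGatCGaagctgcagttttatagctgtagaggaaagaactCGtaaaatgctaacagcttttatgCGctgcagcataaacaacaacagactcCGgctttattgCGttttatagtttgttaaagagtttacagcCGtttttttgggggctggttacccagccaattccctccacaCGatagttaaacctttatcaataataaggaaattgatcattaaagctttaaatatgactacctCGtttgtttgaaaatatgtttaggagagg
Hoxb4: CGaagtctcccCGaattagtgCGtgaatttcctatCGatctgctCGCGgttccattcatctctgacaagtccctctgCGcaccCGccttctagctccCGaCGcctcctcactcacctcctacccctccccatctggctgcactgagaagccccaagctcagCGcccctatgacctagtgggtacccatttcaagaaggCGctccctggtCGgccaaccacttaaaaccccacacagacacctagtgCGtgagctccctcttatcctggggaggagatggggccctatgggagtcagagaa
Hoxb1: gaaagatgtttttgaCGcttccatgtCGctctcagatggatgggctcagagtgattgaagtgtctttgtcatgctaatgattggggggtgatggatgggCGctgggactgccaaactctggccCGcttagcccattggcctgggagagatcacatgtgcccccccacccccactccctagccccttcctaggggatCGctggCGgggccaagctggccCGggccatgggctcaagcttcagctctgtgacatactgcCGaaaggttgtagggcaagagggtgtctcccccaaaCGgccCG
The Hoxb8 promoter (chr11:96281655-96281954) held 13 CpG, and a peak covered 300 of its 300 bases with 500 EMPs and 0 with 15000 EMPs. The Hoxb4 promoter (chr11:96318017-96318316) held 14 CpG and was the reverse, with 0 bases covered with 500 EMPs and 296 with 15000 EMPs. The Hoxb1 promoter (chr11:96365508-96365807) held 10 CpG, and 8 and 300 of its bases were covered. In the whole table of 32851 promoters the median was 7.00 CpG and 94.6% held at least 1. Of all these promoters, 37.9% held at least as many CpG as Hoxb8, 36.3% as many as Hoxb4 and 43.5% as many as Hoxb1. Hoxb2, Hoxb3, Hoxb5, Hoxb6, Hoxb7, Hoxb9 and Hoxb13 are described without their promoter sequences.

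The cluster also carries 2 microRNA genes whose products are known to pair with Hox messages. They are shown with the seed (bases 2 to 8) in capitals, since the seed decides which messages are bound, and the sequences are those of RefSeq on GRCm38.p6.
mmu-miR-196a-5p: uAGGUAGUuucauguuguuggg
mmu-miR-10a-5p: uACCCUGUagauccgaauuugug
The 2 seeds differ. The mature miR-196a-5p, best known for cleaving the Hoxb8 message, lies at chr11:96265187-96265208 upstream of Hoxb9, and miR-10a-5p lies at chr11:96317186-96317208 just upstream of Hoxb4. Both mature sequences were inside a peak with 15000 EMPs and outside every peak with 500 EMPs. Of the Mir196a-1 hairpin 11.8% was covered with 500 EMPs and 100% with 15000 EMPs, and of the Mir10a hairpin 0% and 100%.

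In both libraries H3K27me3 peaks covered a larger share of Hoxb9 and Hoxb13 than of the other genes taken in groups, with exceptions among single genes. Of the 174 kb from the first base of Hoxb13 (96194316) to the last base of Hoxb1 (96368256), peaks covered 57.5 kb (33.0%) with 500 EMPs and 101 kb (58.3%) with 15000 EMPs. Within the 10 genes themselves, the summed gene bodies of Hoxb9 and Hoxb13 were covered over 89.4% with 500 EMPs and 96.5% with 15000 EMPs. Hoxb5 to Hoxb8 followed with 52.0% and 88.2%, and Hoxb1 to Hoxb4 were lowest with 20.9% and 62.1%. The last sum is mostly that of the long Hoxb3, and with 15000 EMPs Hoxb1 was covered over 100%, as Hoxb13 was, and Hoxb6 over 95.6% against 94.4% for Hoxb9. With 500 EMPs Hoxb7, at 80.7%, was above Hoxb13, at 77.7%.

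**Figure D1:**
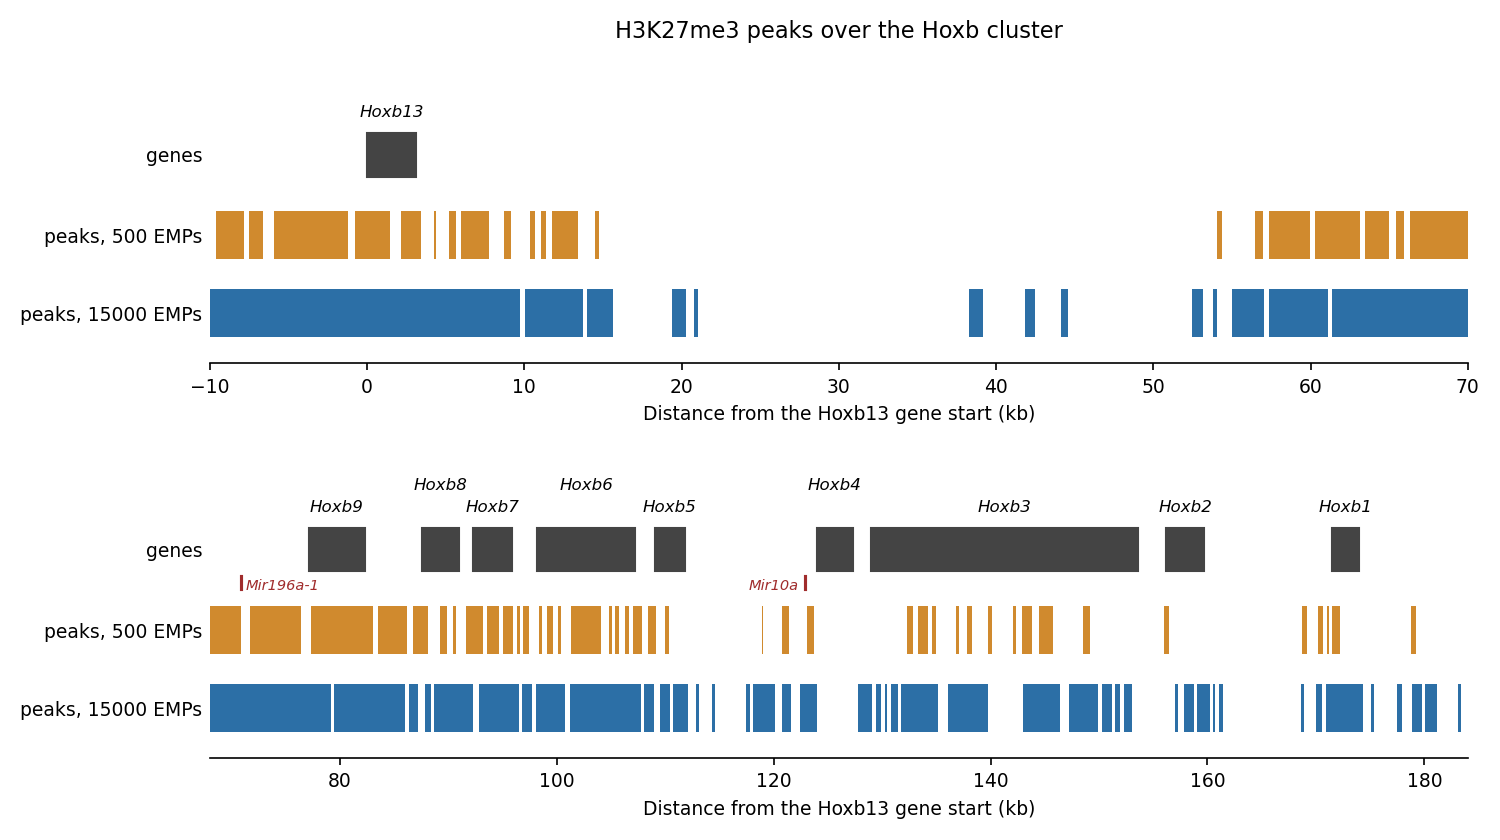
Positions of the genes (dark boxes, all read left to right), the microRNA genes Mir196a-1 and Mir10a (red ticks) and the H3K27me3 peaks of the 500-EMP (orange) and 15000-EMP (blue) libraries, drawn to scale over 2 stretches of the cluster against the distance in kb from the Hoxb13 start. Peaks cluster around Hoxb13 and from upstream of Hoxb9 to Hoxb5, and the widest blank stretches lie between Hoxb13 and Hoxb9 (39.3 kb with 500 EMPs, 17.2 kb with 15000 EMPs).

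A peak within 3 kb, by the authors' annotated distance, was present for 9 of the 10 genes with 500 EMPs, where 9.79% of all protein-coding genes had one. With 15000 EMPs all 10 genes had such a peak, against 16.8% of protein-coding genes. Counted from the GENCODE gene start, a peak within 3 kb was again found for 9 and 10 of the members, against 9.94% and 17.0% of all protein-coding genes. The exception with 500 EMPs was Hoxb3, whose smallest annotated distance was 3276 bp although 10 peaks lay on its body, since that distance is taken to the ends of the gene. The start of the gene itself was inside a peak for 5 of 10 genes with 500 EMPs (1.41% of all protein-coding genes) and for 6 of 10 with 15000 EMPs (8.64%). The genes were mostly not the same: Hoxb13, Hoxb8, Hoxb7, Hoxb5 and Hoxb2 with 500 EMPs, and Hoxb13, Hoxb9, Hoxb6, Hoxb4, Hoxb3 and Hoxb1 with 15000 EMPs. Hoxb13 was thus the only member whose start lay inside a peak in both libraries, as did 1.31% of all protein-coding genes. That is 1 of the 5 Hoxb starts inside a 500-EMP peak, where over all protein-coding genes it was 287 of 308. From the most downstream start of a coding transcript the counts were 3 and 6 of 10, and Hoxb6 then joined Hoxb13 in both libraries. The share of all protein-coding genes from such starts is not given here.

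The covered length within 3 kb of each start, a window of 6001 bp, had a median over the 10 genes of 2456 bp with 500 EMPs and 4822 bp with 15000 EMPs. The median over all protein-coding genes was 0 bp in both libraries. Among the 2177 genes with any covered base in the window it was 789 bp with 500 EMPs, and among 3726 such genes it was 2744 bp with 15000 EMPs. Ranges of the 3 groups of neighbouring genes did not overlap in either library. For Hoxb9 and Hoxb13 the windows held 4869 to 5105 bp with 500 EMPs and 5711 to 6001 bp with 15000 EMPs, for Hoxb5 to Hoxb8 2271 to 3864 bp and 4734 to 5394 bp, and for Hoxb1 to Hoxb4 0 to 1846 bp and 1408 to 4252 bp. This separation was a matter of the window and the start chosen. With 1 kb to each side the ranges of Hoxb1 to Hoxb4 (0 to 1121 bp with 500 EMPs) and Hoxb5 to Hoxb8 (647 to 1534 bp) overlapped, and Hoxb9, at 1105 bp, lay below Hoxb8, Hoxb7 and Hoxb1. With the most downstream start of a coding transcript Hoxb6 held 5939 bp with 15000 EMPs, above Hoxb9.

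**Figure D2:**
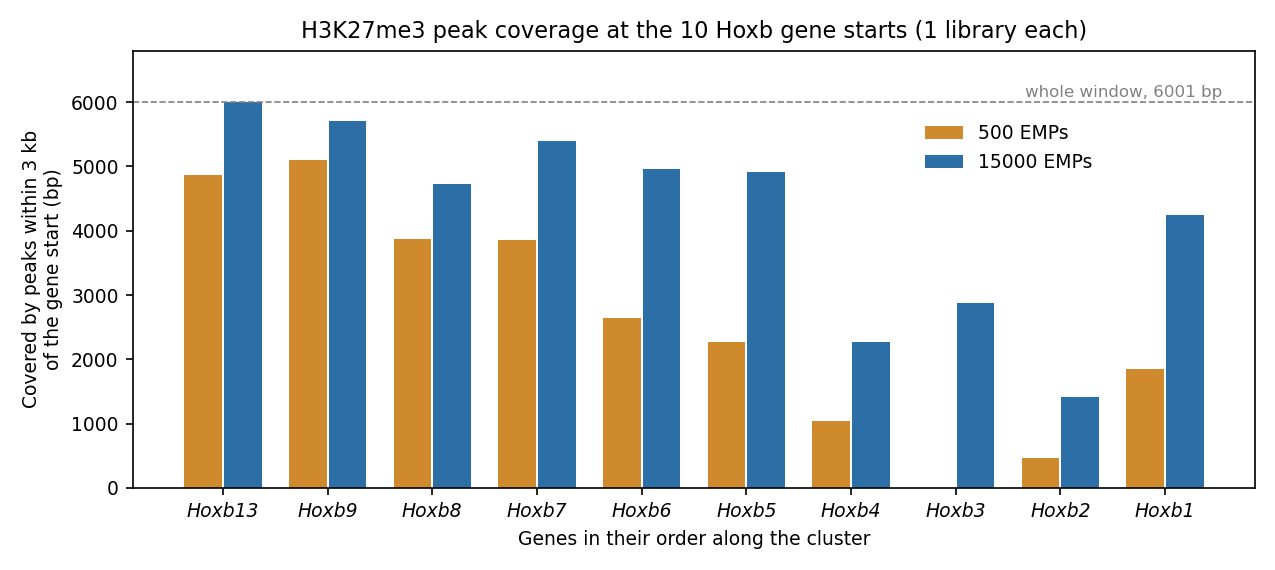
Length in bp covered by H3K27me3 peaks within 3 kb of each Hoxb gene start, in the order of the genes along the chromosome, for the 500-EMP (orange) and 15000-EMP (blue) library, 1 library each and therefore without error bars. The bars of Hoxb13 and Hoxb9 are the highest in both libraries, those of Hoxb4, Hoxb3 and Hoxb2 the lowest with Hoxb1 above them, Hoxb3 has no bar with 500 EMPs, and the dashed line marks the whole window of 6001 bp.

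Hoxb13, the most 5′ gene, which acts in the tail bud and the prostate, lies apart from the others at chr11:96194316-96197447. Its window was covered over 4869 bp with 500 EMPs and over all 6001 bp with 15000 EMPs. A wholly covered window was found for 0.634% of protein-coding genes with 15000 EMPs and for 0.0183% with 500 EMPs. The gene body was covered over 77.7% and 100%. With 15000 EMPs a single peak of 29727 bp (chr11:96174326-96204052) held the gene, and it was the second widest by rank (rank 2) of that list. With 500 EMPs the same stretch was broken into 12 peaks that covered 76.3% of it.

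Hoxb9, which with its paralogs patterns the ribs and acts in the mammary gland, lies at chr11:96271457-96276595. Its window held 5105 bp of peaks with 500 EMPs, the highest of the 10 genes there, and 5711 bp with 15000 EMPs. Of its body 96.5% and 94.4% was covered, the only member in which the smaller cell number gave the higher share. The widest 500-EMP peak of the cluster, 5741 bp (chr11:96271639-96277379), ran through the gene and was at rank 19 of that list, yet it began 182 bp after the gene start. With 15000 EMPs a peak of 17826 bp (chr11:96255683-96273508) came in from upstream, over Mir196a-1, and crossed the start.

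Hoxb8 (chr11:96281905-96285315) and Hoxb7 (chr11:96286623-96290162), the latter a factor of kidney branching and of several tumours, lie next in the block. Their windows held 3864 and 3855 bp with 500 EMPs and 4734 and 5394 bp with 15000 EMPs. Both starts lay inside a peak with 500 EMPs and outside one with 15000 EMPs, by 250 bp at Hoxb8 and 60 bp at Hoxb7. The break in the 15000-EMP peaks ran over 677 bp at the Hoxb8 start, where it took in the whole printed promoter, and over 607 bp at the Hoxb7 start. Gene bodies were covered over 45.0% and 85.3% for Hoxb8 and 80.7% and 84.5% for Hoxb7.

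Hoxb6 (chr11:96292476-96301569) and Hoxb5 (chr11:96303336-96306121) close the densely covered block. Hoxb6, which is expressed in lateral mesoderm and early blood progenitors, held 2641 bp in its window with 500 EMPs and 4953 bp with 15000 EMPs, and its body was covered over 55.0% and 95.6%. From its most downstream coding start the 500-EMP value was higher, at 4034 bp. Hoxb5 held 2271 bp and 4911 bp. Most of its 500-EMP coverage lay before the start, 1880 bp against 390 bp after it, and only 14% of its body was covered there against 72.1% with 15000 EMPs. The authors' nearest distances for Hoxb5, counted from a coding transcript that starts further downstream, were 88 and 232 bp. At the GENCODE start of Hoxb5 the 15000-EMP peaks were broken over 582 bp, and the nearest peak was 58 bp away.

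Hoxb4 (chr11:96318267-96321638) had the least covered body of the 10 genes in both libraries. With 500 EMPs 0% of the gene was covered, and with 15000 EMPs 46 bp (1.36%). Peaks stood before the start instead: 1040 bp of the 3 kb upstream with 500 EMPs and 2228 bp with 15000 EMPs, against 0 and 45 bp of the 3 kb downstream. The 15000-EMP peak that held Mir10a and 296 bases of the printed promoter ended just inside the gene.

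Hoxb3 (chr11:96323326-96347930), the longest gene of the cluster with several alternative starts, held 0 bp in its window with 500 EMPs and 2870 bp with 15000 EMPs. Its body nevertheless carried 10 peaks with 500 EMPs and 11 with 15000 EMPs, which covered 24.9% and 67.7% of it. Exonic bases made up 372 of the 6127 covered bp with 500 EMPs and 2493 of 16652 bp with 15000 EMPs. Of all exonic bases of the gene, 8.75% and 58.6% were covered. At its most downstream coding start the window held 716 and 4267 bp.

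Hoxb2 (chr11:96350525-96354012), which acts with Hoxb1 in the hindbrain, had the lowest 15000-EMP window of the cluster, 1408 bp, and 462 bp with 500 EMPs. The GENCODE start of Hoxb2 was inside a narrow 500-EMP peak of 462 bp and lay 757 bp from the nearest 15000-EMP peak. That start belongs to a non-coding transcript of the gene. The coding start further downstream lay in no peak of either library, and its window held 462 bp and 2425 bp. The authors' distances, counted from the coding transcript, were 872 bp and 27 bp.

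Hoxb1 (chr11:96365752-96368256), the most 3′ gene and the marker of a hindbrain segment, was covered again to a larger extent around its GENCODE start. Its window held 1846 bp with 500 EMPs and 4252 bp with 15000 EMPs, above Hoxb2, Hoxb3 and Hoxb4 in both libraries, although Hoxb3 reached 4267 bp with 15000 EMPs from its most downstream coding start. The body was covered over 29.4% with 500 EMPs and over 100% with 15000 EMPs. The start lay 48 bp before the nearest 500-EMP peak, of which 8 bases fell in the promoter printed above, and inside a 15000-EMP peak that held the whole promoter.

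Summed over the 10 genes, the 3 kb upstream of the starts carried 14712 bp of peaks and the 3 kb downstream 11236 bp with 500 EMPs, and upstream was higher for 6 genes. With 15000 EMPs the sums were 21014 and 21488 bp, and upstream was higher for 4 genes. The side of the start on which coverage was higher was therefore not shared by the genes or by the libraries.

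Genes and the stretches between them were also set side by side. The 34.7 kb from Hoxb9 to Hoxb5 were covered over 63.1% with 500 EMPs and 87.5% with 15000 EMPs. The 62.1 kb after Hoxb5 to the end of Hoxb1 were covered over 15.8% and 49.0%. The 74.0 kb between Hoxb13 and Hoxb9, which hold no protein-coding gene, lay in between with 500 EMPs at 31.5%, and near the 3′ stretch with 15000 EMPs at 50.7%. The 4 short intergenic stretches of the block ranged widely with 500 EMPs, at 81.5% between Hoxb9 and Hoxb8, 48.7% between Hoxb8 and Hoxb7, 38.6% between Hoxb7 and Hoxb6 and 71.6% between Hoxb6 and Hoxb5. With 15000 EMPs they were covered over 85.6%, 95.5%, 71.0% and 82.3%, in the same order. The 12.1 kb between Hoxb5 and Hoxb4 dropped to 11.3% and 46.5%, and the 11.7 kb between Hoxb2 and Hoxb1 to 9.45% and 21.3%. Libraries diverged most between Hoxb4 and Hoxb3, at 0% and 72.8%, and between Hoxb3 and Hoxb2 the 500-EMP value was the higher of the pair, at 8.83% and 0%.

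**Figure D3:**
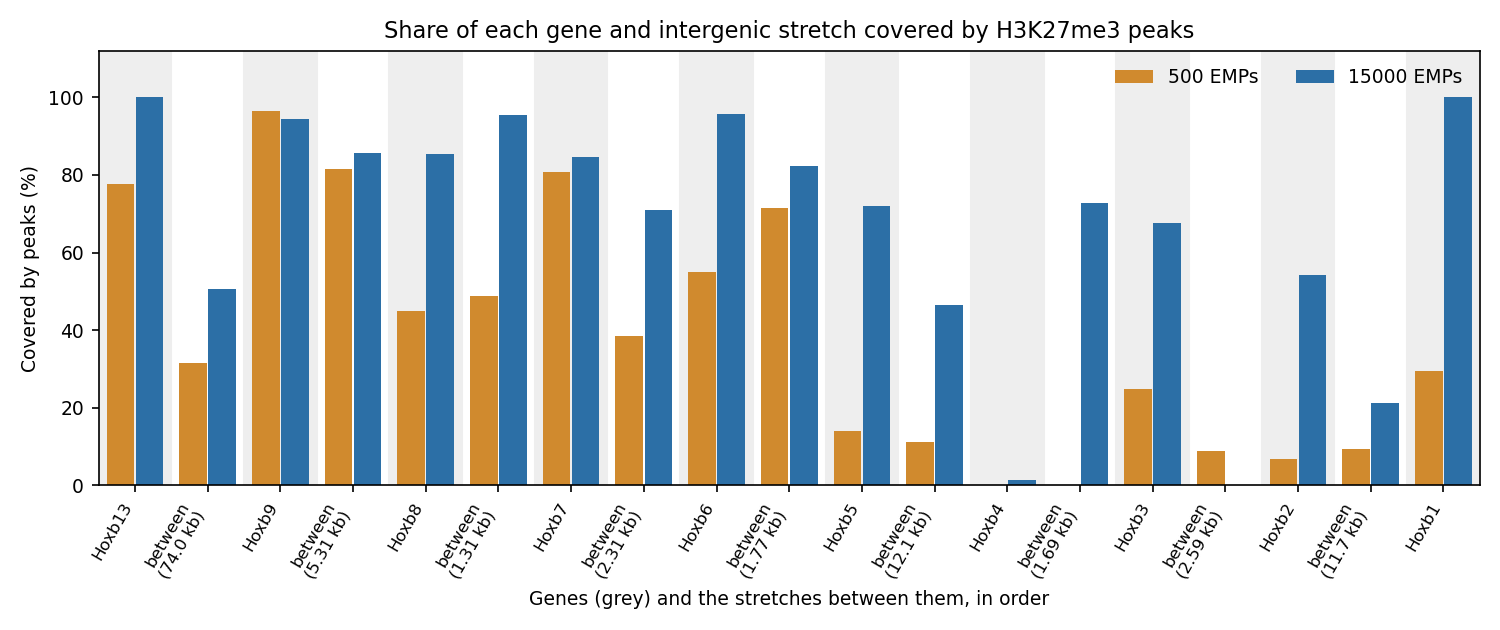
Share in percent of each Hoxb gene (grey bands) and of each stretch between neighbouring genes (white bands, length given) covered by H3K27me3 peaks with 500 EMPs (orange) and 15000 EMPs (blue), 1 library each. Hoxb4 is nearly bare in both libraries (0% and 1.36%), and from Hoxb9 to Hoxb5 every 15000-EMP bar is above 70%.

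Gaps of at least 1 kb numbered 17 with 500 EMPs and 12 with 15000 EMPs, and they made up 81.7% and 78.0% of the uncovered length (116 kb and 72.5 kb). The widest, in both libraries, lay between Hoxb13 and Hoxb9. With 500 EMPs it ran over 39.3 kb (chr11:96209086-96248349), of which 15000-EMP peaks covered 12.6%. With 15000 EMPs it ran over 17.2 kb (chr11:96215390-96232569), with no 500-EMP peak in it.

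Bases uncovered in both libraries summed to 68.2 kb, and 11 common gaps reached 1 kb. Their places set the 3 stretches of the cluster apart. Between Hoxb13 and Hoxb9 lay 5 of them, of 3.79, 17.2, 2.68, 1.63 and 7.87 kb, in order. From Hoxb9 to Hoxb5 there were 0, and the widest gap that lay wholly within that stretch was 1083 bp with 500 EMPs and 677 bp with 15000 EMPs. A wider 500-EMP gap, of 8575 bp, began inside Hoxb5 and ran on past its end. After Hoxb5 lay 6: 1.17 and 2.91 kb before Mir10a, 3.79 kb from just inside Hoxb4 to upstream of Hoxb3, 1.99 kb inside Hoxb3, 2.94 kb from the 3′ end of Hoxb3 to just before Hoxb2, and 7.17 kb between Hoxb2 and Hoxb1. None of the 11 common gaps held a Hoxb gene start.

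Gene starts did lie in gaps of single libraries. With 500 EMPs a gap of 8.61 kb (chr11:96317988-96326601) took in the whole of Hoxb4 and the starts of Hoxb4 and Hoxb3, and 15000-EMP peaks covered 40.3% of it. Another, of 12.2 kb, ran from within Hoxb2 to upstream of Hoxb1. With 15000 EMPs a gap of 3.92 kb (chr11:96347357-96351281) held the GENCODE start of Hoxb2.

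From Hoxb9 to Hoxb5 most breaks were short, with a median of 513 bp over the 21 that touched it with 500 EMPs and of 340 bp over the 11 with 15000 EMPs. Of the 11 breaks with 15000 EMPs, 3 fell on gene starts, those of Hoxb8, Hoxb7 and Hoxb5, and they were the widest of the 11 at 677, 607 and 582 bp; the others ran from 250 to 398 bp. With 500 EMPs 2 of the 21 breaks held a start, 896 bp wide at Hoxb9 and 921 bp at Hoxb6. The 2 libraries were thus broken at different starts.

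When peaks less than 3 kb apart were joined, the cluster resolved into 6 runs with 500 EMPs and 8 with 15000 EMPs. The run over Hoxb13 was nearly the same in both, 48.0 kb (chr11:96161074-96209085) and 48.4 kb (chr11:96161558-96209938). It reached 33.2 and 32.8 kb before the Hoxb13 start and 11.6 and 12.5 kb past its end. On the upstream side it entered the 3′ part of Ttll6, a tubulin glutamylase gene, whose body was covered over 8.99% and 31.1% while the 3 kb to each side of its start held 0 bp. The run over Hoxb9 began upstream of Gm53, a lincRNA gene covered over 86.6% and 95.7%, at 96248350 and 96246751. It ended within Hoxb5 at 96304639 with 500 EMPs (56.3 kb) and at base 46 of Hoxb4 at 96318312 with 15000 EMPs (71.6 kb).

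Past Hoxb1 the peaks stopped within 5263 bp with 500 EMPs and 9393 bp with 15000 EMPs, and the next peak followed after 32173 and 25805 bp. Skap1, an adaptor of T cell receptor signalling and the next protein-coding gene on that side, held 1541 and 5475 bp within 3 kb of its start. Calcoco2, upstream of Ttll6, held 0 bp in both libraries. Antisense transcripts of the cluster, named after their values were seen as was Gm53, ranged widely. Hoxb5os was covered over 45.5% and 85.0%, Gm11536, which lies inside Hoxb3, over 43.1% and 68.4%, and Hoxb3os over 7.75% and 49.2%.

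Among the 60 peaks found with 500 EMPs, 57 shared at least 1 bp with a peak of the 15000-EMP list (95%, with a 95% Wilson interval 86.3 to 98.3). In reverse 28 of 54 did (51.9%, 38.9 to 64.6). Over the whole lists 91.2% of the 10223 peaks and 32.2% of the 15282 peaks overlapped one of the other list. These intervals cover counting error only, and neighbouring peaks of 1 library are not independent. In length, 53.2 kb were covered in both libraries, 92.6% of the 500-EMP and 52.4% of the 15000-EMP covered length.

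The 3 peaks seen with 500 EMPs alone were narrow (238 to 462 bp), and all lay after Hoxb5, 2 inside Hoxb3 and 1 at the Hoxb2 start. Of the 26 peaks seen with 15000 EMPs alone, 19 lay after the end of Hoxb5, some of them past Hoxb1. Among the region's peaks, 26 of 54 with 15000 EMPs and 18 of 60 with 500 EMPs touched the stretch after Hoxb5 to Hoxb1. The 26 peaks seen with 15000 EMPs alone had a median width of 482 bp. The widest of them, 1424 bp, lay in Hoxb5. Wide 15000-EMP peaks appeared with 500 EMPs as series of pieces, and the 5 widest held 12, 6, 5, 2 and 2 pieces that covered between 67.8% and 92.8% of them.

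Against the other 3 Hox clusters, Hoxb had the lowest covered share in both libraries. Hoxd was covered over 56.4% with 500 EMPs and 87.0% with 15000 EMPs, Hoxa over 66.3% and 93.3%, and Hoxc over 76.8% and 96.8%, beside 33.0% and 58.3% for Hoxb. Without the long stretch to Hoxb13, Hoxb9 to Hoxb1 (96.8 kb) was covered over 32.7% and 62.8%, still below the other clusters. Hoxa, Hoxc and Hoxd span 105, 116 and 96.8 kb against 174 kb for Hoxb, and gap counts were not scaled to length. Gaps of at least 1 kb numbered 6, 7 and 9 in Hoxa, Hoxc and Hoxd with 500 EMPs and 0, 0 and 1 with 15000 EMPs, against 17 and 12 in Hoxb. The only gap of that kind with 15000 EMPs outside Hoxb was 5.21 kb wide, in Hoxd.

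Paralogs, genes of the same number in different clusters, descend from 1 ancestral gene. Hoxb1 to Hoxb4 were covered less than each of their paralogs within 3 kb of the start, in all 8 pairs with 500 EMPs and all 8 with 15000 EMPs. The GENCODE starts of Hoxd3 and Hoxd4 lie 2 bp apart, so that they share a window, as Hoxc5 and Hoxc10 (647 bp apart) nearly do. From the most downstream coding starts, where these genes lie apart, it was again all 8 pairs in both libraries. Hoxb2 held 462 and 1408 bp where Hoxa2 held 4840 and 5199 bp. For Hoxb3 the values were 0 and 2870 bp, and its paralogs held 3061 to 5399 bp and 5404 to 6001 bp. At the other end Hoxb13 exceeded all 3 paralogs in both libraries, with 4051 to 4579 bp and 4605 to 5685 bp in Hoxa13, Hoxc13 and Hoxd13. Hoxb9 exceeded its 3 paralogs with 500 EMPs, and with 15000 EMPs 2 of the 3 were covered more than it. Hoxb5 to Hoxb8 were covered less than their paralogs in 3 of 7 pairs with 500 EMPs and in 7 of 7 with 15000 EMPs. The counts for Hoxb5 to Hoxb8, and for Hoxb9 with 15000 EMPs, changed with the start chosen. From the most downstream coding starts with 500 EMPs, Hoxc5 (5354 bp) exceeded Hoxb5 (2271 bp) and Hoxd8 (3255 bp) exceeded Hoxb8 (3202 bp). With 15000 EMPs Hoxc6 (5712 bp) then lay below Hoxb6 (5939 bp), and Hoxa9 (5367 bp) below Hoxb9 (5711 bp).

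Over the 29 Hox genes of the other clusters the median was 4224 bp with 500 EMPs and 5724 bp with 15000 EMPs, and the lowest values were 811 bp at Hoxa7 and 4605 bp at Hoxa13. With 15000 EMPs Hoxb1, Hoxb2, Hoxb3 and Hoxb4 all lay below that lowest value, and they did so from the most downstream coding starts as well. With 1 kb to each side only Hoxb2 did. With 500 EMPs Hoxb2 and Hoxb3 lay below the lowest other gene, a comparison that could not be made under these other settings because the lowest other gene was then at 0 bp. In windows of 1 kb to each side the medians were also closer, at 950 bp for the other genes and 922 bp for Hoxb with 500 EMPs and 2001 and 1478 bp with 15000 EMPs.

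**Figure D4:**
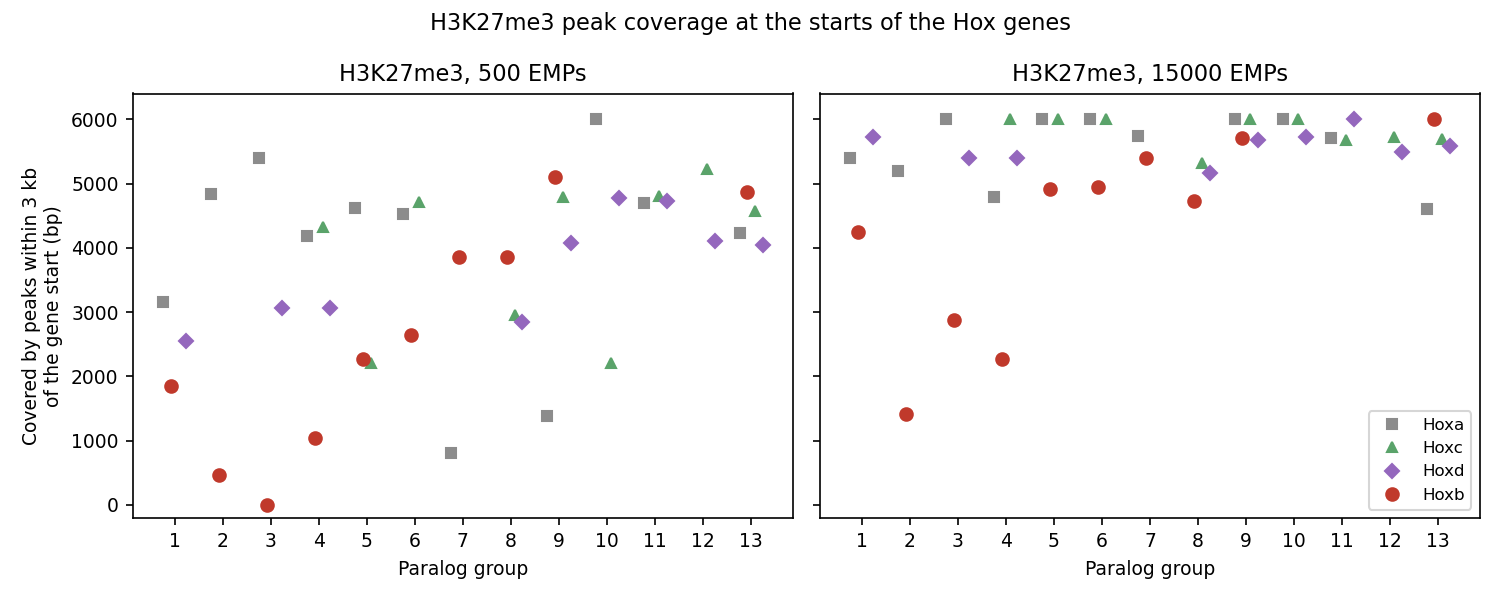
Length in bp covered by H3K27me3 peaks within 3 kb of the start of every Hox gene, by paralog group and cluster (Hoxb as red circles), with 500 EMPs on the left and 15000 EMPs on the right, 1 library each. With 15000 EMPs Hoxb1 to Hoxb4 (1408 to 4252 bp) lie below all 29 genes of the other clusters, of which the lowest holds 4605 bp.

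Other genes tied to Hox control, and genes of the cell types the gate could hold, were read from lists of peaks within 3 kb, where 9.79% and 16.8% of all protein-coding genes had such a peak with 500 and 15000 EMPs. All 3 Cdx genes, the caudal factors that activate Hox genes, had a peak in both libraries. Among 9 TALE class genes and related cofactors that bind DNA with Hox proteins, 2 had a peak with 500 EMPs (Meis2 and Pknox2). With 15000 EMPs 3 had one (Meis3 in addition), while Meis1, Pknox1 and the 4 Pbx genes had none in either library. Of 13 genes of the EMP gate and of blood, 0 had a peak in either library (95% Wilson interval 0 to 22.8%, which holds the shares of all genes). Of 8 endothelial genes 2 had one with 500 EMPs (Sox17 and Erg) and 4 with 15000 EMPs (Kdr and Sox18 in addition). Cdh5, Pecam1, Tek and Tie1 had none in either library. All 4 mesenchymal genes, Pdgfra, Col1a1, Twist1 and Prrx1, had one in both libraries. A peak or its lack is not a level of RNA, and what part other cells had in the Hoxb peaks was not tested.

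The CpG content of covered and uncovered DNA differed between the stretches of the cluster. Over the whole span there were 2.09 CpG per 100 bases, 2.33 in covered and 1.76 in uncovered sequence with 15000 EMPs, and 2.2 and 2.04 with 500 EMPs. The common gaps of at least 1 kb held 1.28. Between Hoxb13 and Hoxb9, the stretch poorest in CpG (1.48), covered sequence held 1.76 and uncovered 1.2 with 15000 EMPs. From Hoxb9 to Hoxb5, the richest (3.29), the order was turned, with 3.15 in covered and 4.26 in the short uncovered breaks with 15000 EMPs and 2.96 and 3.84 with 500 EMPs. After Hoxb5 the libraries went opposite ways, 2.22 against 2.05 with 15000 EMPs and 1.5 against 2.25 with 500 EMPs.

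At the starts themselves CpG number did not follow coverage gene by gene. Within 500 bp of the start Hoxb9 held 90 CpG, Hoxb7 65, Hoxb5 51, Hoxb13 39 and Hoxb8 38. The 3′ genes Hoxb4 and Hoxb1 held 36 each, close to Hoxb13 and Hoxb8. In the same windows of 1001 bp, peaks covered 221 bp at Hoxb4 and 590 bp at Hoxb1 with 500 EMPs, against all 1001 bp at both Hoxb13 and Hoxb8. With 15000 EMPs they covered 546 bp at Hoxb4 and 1001 bp at Hoxb1, against 1001 bp at Hoxb13 and 324 bp at Hoxb8. Hoxb6, Hoxb3 and Hoxb2 were the poorest with 19, 15 and 10.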

How the data were processed

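H3K27me3 CUT&RUN peaks of 500 and 15000 EMPs were analysed, 1 library each. Per the labels and the study's methods, the authors aligned reads to mm10 with Bowtie2 version 2.2.1, handled them with SAMtools version 1.9, called broad peaks per library with MACS2 version 2.1.2 at p-values of 0.01 (500 EMPs) and 0.05 (15000 EMPs), and annotated them with ChIPpeakAnno. The authors' command listing names the other library beside each threshold, and the lists were taken as labelled. The deposited lists hold peak positions, and the deposited annotated tables hold genes and distances without score, read count or signal, so no peak could be ranked by strength. Depth is not in these files, and the study's reporting summary gives lower depth and alignment for 500 EMPs.

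Covered lengths, gaps and overlaps (at least 1 bp) were computed from 1-based positions in Python version 3.11.15, by code tested on simulated data, with gene positions of GENCODE vM21. A gap counted from 1 kb. Ends were taken from the peak lists, since those of the annotated tables lie 1 bp higher. All 10 Hoxb genes are named, and other Hox genes only as paralogs, as the lowest value of their clusters or where starts lie close together. List members are named where 5 or fewer had a peak, as are the cofactors and endothelial genes without one. Members and lists were chosen with earlier results of these data known. A list of chromatin regulator genes is not reported here. Joined peaks, other windows, starts, distances and overlaps were the alternatives. The 4 libraries carry no replicate numbers, and the kit differs between the labels and the methods.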

Additional observations from a re-analysis of the deposited data

How the results depend on the processing

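The 42 results were recomputed in 122 alternative values. Hoxb kept the lowest covered share of the 4 clusters when peaks within 3 kb were joined and without the narrowest peaks. Of the main results 48 alternative values stayed within 1.5 times the reported one (for shares of overlapping peaks, within the Wilson interval) and 14 did not. Joining peaks within 1 kb left 18 peaks in the Hoxb region with 500 EMPs and 15 with 15000 EMPs, and joining within 3 kb left 7 and 8, while it raised the covered share with 500 EMPs to 55.6% in Hoxb and 86.0% in Hoxd. With a gap minimum of 500 bp there were 35 and 24 gaps, and with 3 kb there were 5 and 7. Of the 500-EMP peaks, 10% had a counterpart when at least 50% of both peaks had to overlap and 100% within 1 kb. In reverse it was 16.7% at 50% of the 15000-EMP peak and 11.1% at 50% of both. Single genes moved by over 1.5 times in 9 of 60 values. In windows of 1 kb to each side Hoxb9 was covered over 55.2% with 500 EMPs, and Hoxb2 over 23.1% and 12.2%. The stretch from Hoxb9 to Hoxb1 and the paralog pairs from coding starts were added after seeing the data. No paired analysis was possible because each group had 1 library and the columns carry no replicate numbers. A stricter peak threshold could not be tried, as the lists give no score. Without counts, an uncovered stretch cannot be told apart from one too shallowly sequenced for a call, most of all with 500 EMPs.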
